A study of Mus musculus with 8 samples.

Results

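Mitochondrial ribosomal proteins were taken as all genes whose name begins with Mrpl or Mrps followed by a digit, without names that end in -ps or in -ps and a digit, which mark pseudogenes. The rule found 78 of the 55401 genes in the count table, 49 named for the large subunit (Mrpl) and 29 for the small subunit (Mrps), and left out 6 pseudogene names. All 78 passed the filter on low counts and were tested.

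The mitochondrial ribosome makes the few proteins that the mitochondrial genome encodes, which are core subunits of the respiratory chain and of the ATP synthase. Its ribosomal RNAs come from the mitochondrial genome, whereas its proteins are encoded in the nucleus, made in the cytosol and imported. Many of these proteins have a bacterial counterpart, and others were added in the mitochondrial lineage. Adult haematopoietic stem cells (HSCs) are mostly quiescent, and they rely more on mitochondrial respiration when they become active.

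The study sequenced cDNA libraries of HSCs sorted from the bone marrow of C57BL/6 mice at 8 weeks of age, 4 libraries from Nynrin CKO mice and 4 from controls. Nynrin CKO mice carry Nynrinfl/fl and Tie2-Cre, and controls, labelled wild type, carry Nynrinfl/fl without Cre, so Cre is present in the Nynrin CKO group only and both groups share the floxed allele. Tie2-Cre is active in endothelium as well as in blood cells. About 3000 HSCs were sorted per sample and 5 ng of cDNA entered each library. Whether every library stands for another mouse is not in the labels, and p-values therefore cover the spread among these 8 libraries, which may be technical. In bulk RNA, fewer cells of a type and less RNA per cell cannot be told apart.

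Total counts ran from 36942835 to 56437299 per library, and 77 of the 78 members had at least 100 counts in every library. Nynrin, the targeted gene, was at 41.3, 47.5, 30.1 and 30.4 CPM (counts scaled to library size with TMM factors) in controls 1 to 4 and at 12.7, 12.3, 8.24 and 8.22 CPM in Nynrin CKO 1 to 4, a log2 fold change of -1.85 ± 0.22 (SE) with an edgeR adjusted p of 0.0345. All 10 HSC markers checked were detected, with a summed level of 3631 to 5238 CPM. Neutrophil markers, 8 in number, summed to 202 to 327 CPM in controls, to 439 to 488 CPM in Nynrin CKO 1 and 2, and to 3974 to 4016 CPM in Nynrin CKO 3 and 4. The sums of 5 T and NK cell markers were 48.9 to 79.4, 136 to 148 and 261 to 270.3 CPM in the same order, and those of 6 erythroid markers were 83.0 to 107, 235 to 244 and 130.2 to 134 CPM. For 6 macrophage markers the sums were 64.2 to 90.2, 93.0 to 94.3 and 196 to 204 CPM, for 6 B cell markers 36.8 to 43.04, 52.1 to 54.8 and 83.5 to 90.3 CPM, and for 5 endothelial markers 103 to 123, 114 to 115 and 160.02 to 160.2 CPM. Apart from the HSC and endothelial sums in Nynrin CKO 1 and 2, each of these sums was above all controls in every Nynrin CKO library. None of these markers was at 0 in all libraries, and the part of these cells in the results on the members was not tested.

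The libraries also fell into sets by background. Control 4 and Nynrin CKO 3 and 4 had 142 to 225 CPM, unscaled, on 2001 odorant and pheromone receptor genes, which have no known use in blood, and the other 5 libraries had 891 to 1670 CPM. These are named here the set with few (3 libraries) and the set with more (5 libraries) receptor reads. Controls 3 and 4 had high Xist, the RNA of the inactive X chromosome, and the other 6 libraries low Xist. Over the members, Nynrin CKO 1 and 2 differed by a median of 0.10 on the log2 scale and Nynrin CKO 3 and 4 by 0.08, against 0.13 to 0.40 between controls. The counts of the closest pair, Nynrin CKO 3 and 4, differed by more than read-counting error, with a chi-square of 8.41 per degree of freedom over the members. That value covers counting error only, and libraries amplified from the same mouse could also exceed it. All 8 libraries were treated as replicates, as labelled, and values with the similar pairs summed are given beside the calls.

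With TMM factors, messenger RNAs of the mitochondrial ribosome were higher in Nynrin CKO HSCs, and both subunits shared the difference. Its size and the calls depended on the scaling and on single libraries, as given below. In the edgeR fit 14 of 49 large subunit members rose and none fell, with a median log2 fold change of 0.49 and 49 of 49 values above 0. Of the 29 small subunit members, 11 rose and none fell, with a median of 0.50 and 27 of 29 values above 0. Over all 27573 tested genes 2.22% were called higher and 0.588% lower, and the median was -0.09. Among the 10651 tested genes with a mean level inside the range of the members, 4.34 to 146 CPM, 4.6% were called higher and the median was 0.14. The rise was modest for each gene: called members had log2 fold changes of 0.47 to 0.78, and their edgeR adjusted p-values all lay between 0.0379 and 0.0497. A further 22 members had an adjusted p between 0.05 and 0.10, and 31 had one above that.

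Separation of the libraries was more frequent than the calls. In 54 of 78 members (69.2%) every Nynrin CKO library was above every control, 36 in the large subunit and 18 in the small, and in no member was the order reversed. That separation held upward in 9.52% of all tested genes and in 18.7% of genes at the members' level, and downward in 4.83% of all tested genes. Among genes at that level it was more frequent in short transcripts, and the shares by length are given below. At an unadjusted p under 0.05, 60 members were higher and none lower, against 13.2% of all tested genes higher and 5.78% lower, and 26.4% higher at the members' level.

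The calls rested on all of the libraries but 1. When control 1, 2 or 3 or any single Nynrin CKO library was left out, edgeR called 0 members in either subunit, with 22 to 39 large and 15 to 23 small subunit members at an unadjusted p under 0.05. Without control 4 it called 30 large and 16 small subunit members higher (3.73% of all tested genes). With the library set described above as a term it called 20 and 14 (4.43%). DESeq2 called 25 and 14 (6.22%) and limma-voom 33 and 19 (5.98%), but with Nynrin CKO 1 and 2 summed, and 3 and 4 likewise, edgeR called none, with 34 members at an unadjusted p under 0.05.

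**Figure D1:**
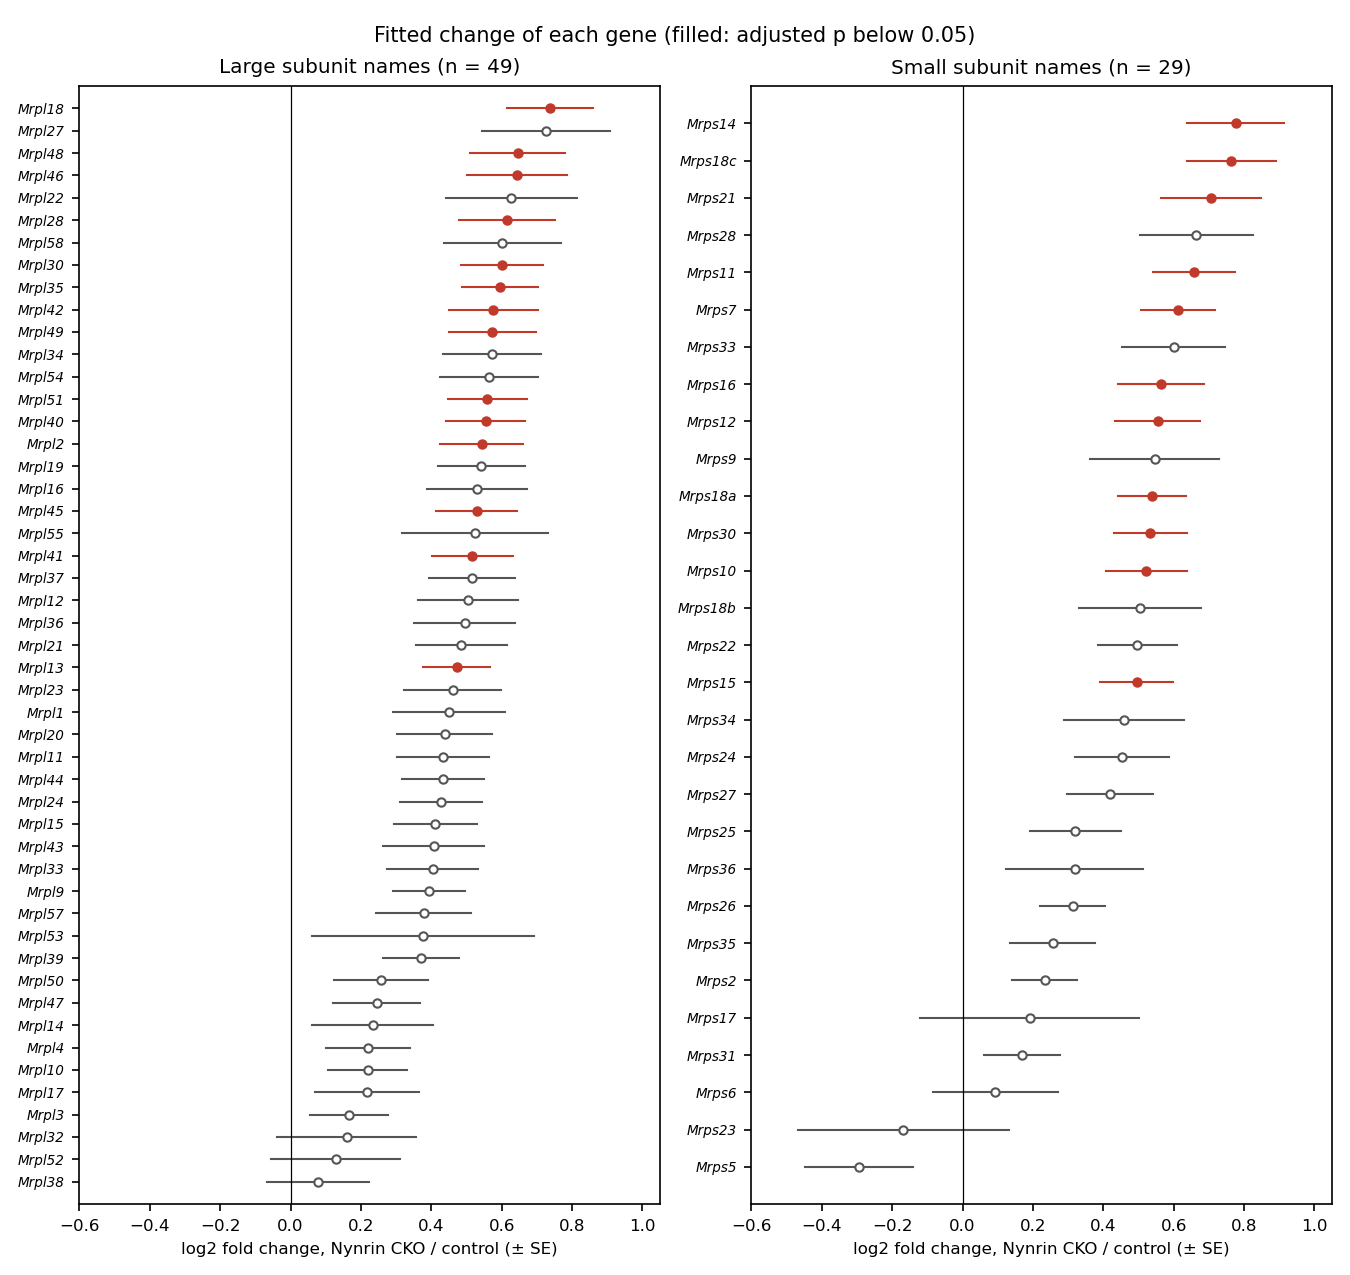
Fitted log2 fold change of each gene between 4 Nynrin CKO and 4 control libraries, with its standard error as a bar, for the 49 large subunit names on the left and the 29 small subunit names on the right. Filled points passed an edgeR adjusted p of 0.05; all large subunit points and all small subunit points but Mrps23 and Mrps5 lie above 0, while with total-count scaling 63 of the 78 did.

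Summed over members, the large subunit reached 1882, 1642, 1791 and 2205 CPM in controls 1 to 4 and 2566, 2577, 2612 and 2623 CPM in Nynrin CKO 1 to 4. The small subunit sums were 1151, 1086, 1118 and 1367 CPM in controls and 1591, 1561, 1665 and 1641 CPM in Nynrin CKO. Every Nynrin CKO sum was above every control sum, by a ratio of means of 1.38 for the large and 1.37 for the small subunit. The balance of the subunits did not move beyond its spread: the large subunit sum was 1.59 ± 0.05 times the small one in controls and 1.61 ± 0.03 times in Nynrin CKO (SD, n = 4 each). With TMM factors the sums in Nynrin CKO 1 and 2 were close to those in 3 and 4. The neutrophil markers given above differed between those pairs, and their part in the sums was not tested. Control 4 was the highest control in 64 of 78 members and the lowest in none.

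Scaling set the size of the difference. As a share of unscaled counts the members took 0.330%, 0.303%, 0.335% and 0.372% in controls 1 to 4, 0.426% and 0.423% in Nynrin CKO 1 and 2, and 0.344% and 0.343% in Nynrin CKO 3 and 4, which is inside the control range. The TMM factors of Nynrin CKO 3 and 4 were 0.80 and those of the other libraries 1.02 to 1.16. With total counts in place of TMM factors the median of all tested genes moved from -0.09 to -0.34 and that of the members to 0.22, with 63 of 78 values above 0. Members thus lay 0.58 above the median of all tested genes with TMM factors and 0.56 above it with total counts. Genes at the members' level were nearer to the members, with medians of 0.14 with TMM factors and -0.12 with total counts. No member was called with total counts, with 16 at an unadjusted p under 0.05.

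**Figure D2:**
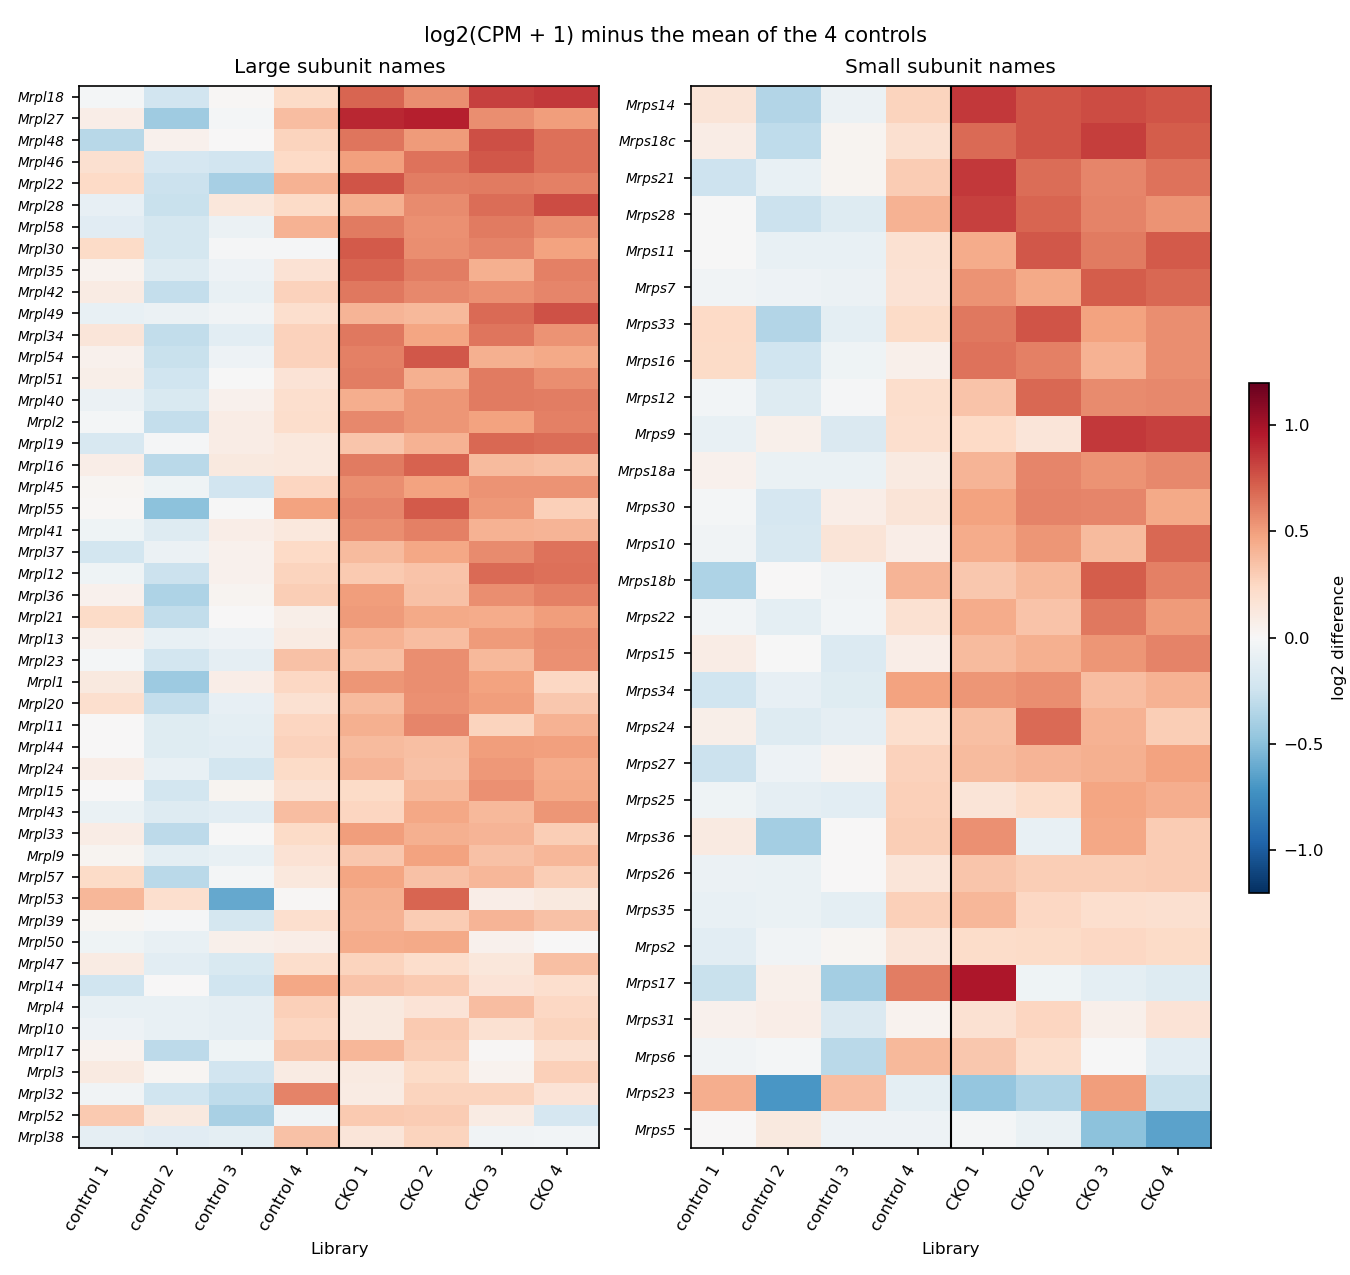
Level of each member in each library as log2(CPM + 1) minus the mean of the 4 controls, with red above and blue below that mean, and genes ordered by fitted log2 fold change within each subunit. The 4 Nynrin CKO columns are red for most genes, the control 4 column is the reddest control, and rows near the bottom (Mrps5, Mrps23, Mrps6 and Mrps17 on the right, Mrpl38 and Mrpl52 on the left) hold some Nynrin CKO values below the control mean.

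The promoters of the genes were examined because most members lay on the same side of the controls. RefSeq promoter windows (GRCm38.p6, 250 bases before to 50 after the start) were given for 69 of the 78 members. Each member was counted by its most upstream window, and each gene at the members' level by its first listed window. Shares of all windows count every window, also where a gene has several, so the shares rest on unlike choices of window. Factors known for nuclear genes of mitochondrial proteins were searched on both strands: NRF1 as GCGCANGCG, ETS factors such as GABP as CCGGAAG and YY1 as AAGATGGC. The NRF1 letters were in 16 member windows (23.2%, against 6.25% of all windows and 14.5% of those of tested genes at the members' level), the ETS letters in 24 (34.8%, 8.86% and 20.5%) and the YY1 letters in 12 (17.4%, 2.75% and 4.90%). None of the 3 was in 27 of the 69 windows (39.1%, 84.0% and 65.03%).

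Windows with each motif and one with none are printed as examples, 150 bases long in the direction of transcription or, for YY1, the 30 bases around the match, with the motif in capitals as it reads on that strand.
Mrpl12, large subunit, NRF1, chr11:120484487-120484636, plus strand: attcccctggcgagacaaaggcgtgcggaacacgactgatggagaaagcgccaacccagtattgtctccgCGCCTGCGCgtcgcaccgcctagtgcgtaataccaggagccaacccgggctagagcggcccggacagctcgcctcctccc
Mrpl58, large subunit, ETS, chr11:115403602-115403751, plus strand: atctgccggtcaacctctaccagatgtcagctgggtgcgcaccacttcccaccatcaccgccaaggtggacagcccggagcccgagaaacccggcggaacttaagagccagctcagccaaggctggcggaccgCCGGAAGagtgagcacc
Mrps18a, small subunit, ETS, chr17:46110854-46111003, plus strand: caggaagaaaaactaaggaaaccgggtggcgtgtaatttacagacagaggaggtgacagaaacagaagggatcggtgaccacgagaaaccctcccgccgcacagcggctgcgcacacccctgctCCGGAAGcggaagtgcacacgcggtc
Mrps14, small subunit, none of the 3, chr1:160195065-160195214, plus strand: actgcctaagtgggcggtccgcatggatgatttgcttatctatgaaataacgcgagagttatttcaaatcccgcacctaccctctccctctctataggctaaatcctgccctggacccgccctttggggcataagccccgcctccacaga
Mrpl36, large subunit, YY1, chr13:73330968-73330997, plus strand: cgtgaccttacGCCATCTTtcttcctggcg
Mrps11, small subunit, YY1, chr7:78783013-78783042, plus strand: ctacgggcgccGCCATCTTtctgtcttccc
The match began 80 bases before the RefSeq start in Mrpl12, 17 in Mrpl58, 26 in Mrps18a, 30 in Mrpl36 and 107 in Mrps11. All 30 bases shown for Mrpl36 are exonic in GENCODE M21, in a transcript of Mrpl36 that starts upstream, and so are all 30 shown for Mrps11, in an exon of the neighbouring Mrpl46. Of the 150 bases shown, 24 are exonic for Mrpl12, 18 for Mrps18a and 0 for Mrpl58 and Mrps14. A match is a description of letters and not a measured binding site. Called members were 3 of 16 with the NRF1 letters and 21 of 53 without, 6 of 24 with the ETS letters and 18 of 45 without, and 7 of 12 with the YY1 letters and 17 of 57 without. The median log2 fold changes with and without each motif were 0.41 and 0.52 for NRF1, 0.50 and 0.49 for ETS, and 0.55 and 0.49 for YY1. Mrps14, printed above with none of the 3, had the largest log2 fold change of all members.

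Large subunit members rose both among proteins with a bacterial counterpart and among those particular to mitochondria. Of 30 with a counterpart, 6 rose and the median log2 fold change was 0.47. Of 19 without, 8 rose and the median was 0.52, and the difference between the classes was not tested. The members that rose in the first class were Mrpl18 (0.74), Mrpl28 (0.61), Mrpl30 (0.60), Mrpl35 (0.59), Mrpl2 (0.54) and Mrpl13 (0.47), which include Mrpl2, the counterpart of a protein at the peptidyl transferase centre. Those in the second class were Mrpl48 (0.65), Mrpl46 (0.64), Mrpl42 (0.58), Mrpl49 (0.57), Mrpl51 (0.56), Mrpl40 (0.56), Mrpl45 (0.53) and Mrpl41 (0.52). Mrpl45 lies near the exit of the peptide tunnel, where new proteins meet the inner membrane.

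Mrpl18 (chr17:12911349-12916345), the counterpart of bacterial L18, was at 57.99, 50.2, 59.3 and 69.3 CPM in controls 1 to 4 and at 96.2, 87.2, 105 and 107 CPM in Nynrin CKO 1 to 4. The groups did not overlap, and the means were 59.2 ± 7.87 and 98.6 ± 8.85 CPM (SD, n = 4 each). Its log2 fold change was 0.74 ± 0.12 (SE) with an edgeR adjusted p of 0.0379, and it came to 0.72 in the set with more receptor reads and 0.61 in the one with few. The exact two-sided permutation p over the 70 assignments of the 8 libraries was 0.0286, the smallest this design allows, and every member whose groups did not overlap has that value. Part of the Mrpl18 exons lies opposite Tcp1, a subunit of the cytosolic chaperonin with 325% of its counts, which had a log2 fold change of 0.42.

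Mrpl35 (chr6:71812997-71823810), the counterpart of bacterial L35, had 45.1, 39.1, 41.99 and 49.5 CPM in controls and 71.7, 67.4, 59.00 and 67.2 CPM in Nynrin CKO. All Nynrin CKO values were higher, with Nynrin CKO 3 the lowest of them (log2 fold change 0.59 ± 0.11 (SE), edgeR adjusted p = 0.0397). Mrpl30 (chr1:37890477-37898535), the counterpart of L30, was measured at 51.3, 37.7, 43.2 and 43.3 CPM in controls and 73.4, 64.5, 66.5 and 61.5 CPM in Nynrin CKO, again without overlap (0.60 ± 0.12 (SE), edgeR adjusted p = 0.0408). Mrpl13 (chr15:55534094-55557748), the counterpart of L13, showed the tightest controls of these, 43.2, 38.8, 39.5 and 44.2 CPM, against 55.7, 53.6, 59.4 and 61.2 CPM in Nynrin CKO (0.47 ± 0.10 (SE), edgeR adjusted p = 0.0438). Its difference was the smallest among called members.

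Mrpl51 (chr6:125191801-125196269) and Mrpl40 (chr16:18872018-18876862) have no bacterial counterpart. Mrpl51 was at 48.6, 39.1, 46.1 and 51.9 CPM in controls and 71.3, 62.4, 71.7 and 68.3 CPM in Nynrin CKO (0.56 ± 0.11 (SE), edgeR adjusted p = 0.0431). Mrpl40 was at 36.02, 33.2, 39.5 and 43.8 CPM in controls and 51.5, 55.3, 58.8 and 58.4 CPM in Nynrin CKO (0.56 ± 0.11 (SE), edgeR adjusted p = 0.0438). In both genes control 4 was the highest control and still below every Nynrin CKO library.

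**Figure D3:**
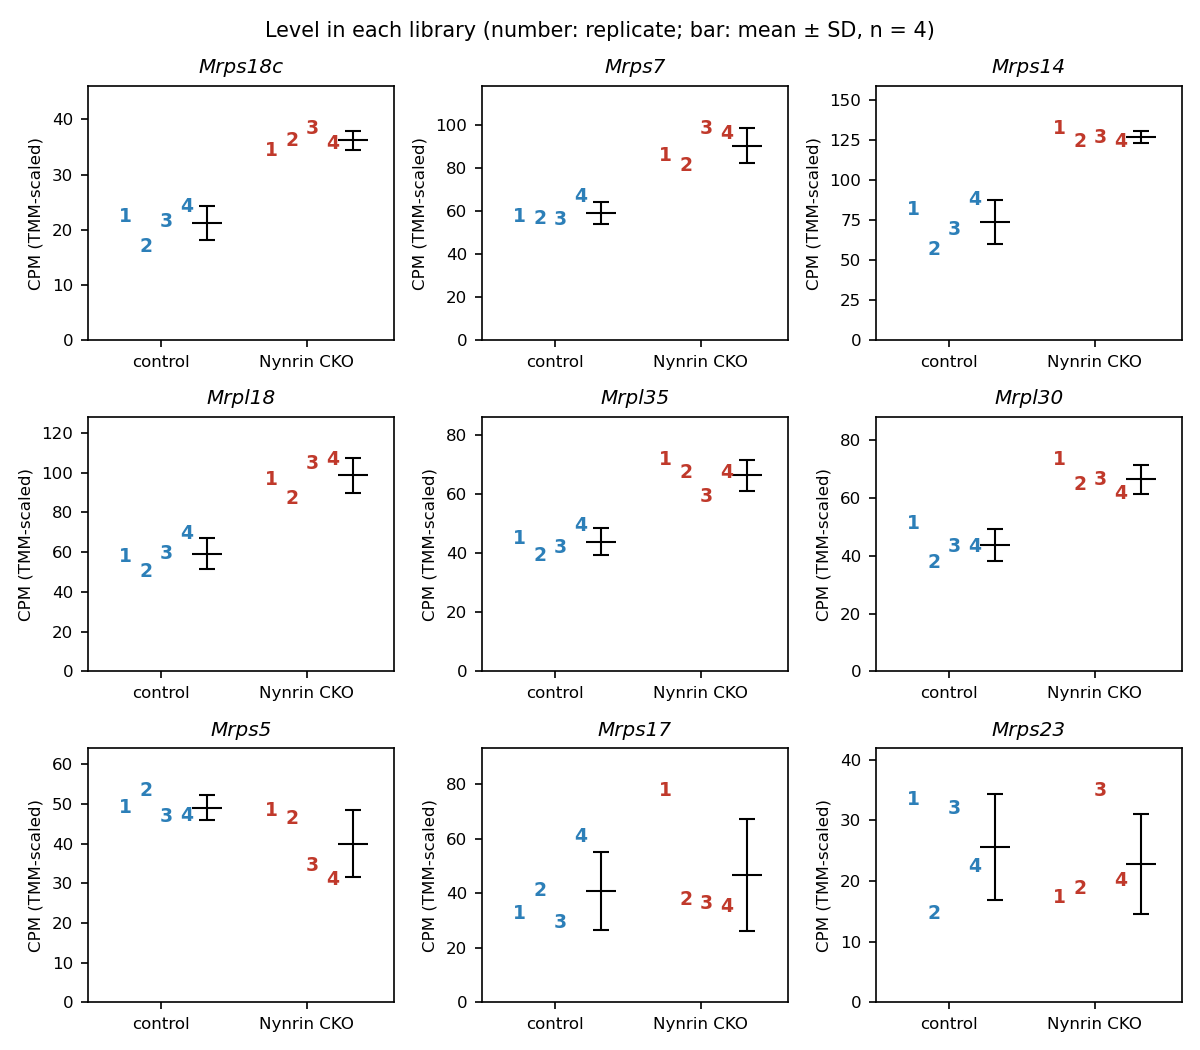
CPM of 9 members in each library, with control libraries in blue, Nynrin CKO libraries in red, the replicate number as the marker and the mean ± SD (n = 4) as a bar. The groups are apart in the upper 6 panels, as for Mrps18c at 17.0 to 24.2 against 34.4 to 38.4 CPM, and overlap in the lower 3, where Mrps17 in Nynrin CKO 1 reached 77.7 CPM.

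Levels per kb of the longest transcript placed Mrpl12 and Mrpl36 highest and Mrpl58 and Mrpl53 lowest among large subunit members in controls. Mrpl12 (chr11:120484613-120489065), which also binds the mitochondrial RNA polymerase, was at 55.01 CPM per kb in controls. Its library levels were 69.03, 60.03, 74.2 and 86.3 CPM in controls and 89.7, 91.2, 116 and 114 CPM in Nynrin CKO, where 3 and 4 were above 1 and 2 (log2 fold change 0.50 ± 0.14 (SE), edgeR adjusted p = 0.0862). Mrpl36 (chr13:73328513-73332178) was at 54.4 CPM per kb, with 51.3, 38.1, 50.6 and 61.01 CPM in controls and 70.5, 63.5, 73.5 and 75.8 CPM in Nynrin CKO (0.49 ± 0.14 (SE), edgeR adjusted p = 0.0912). Neither passed the threshold, although the groups did not overlap in either.

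Mrpl58 (chr11:115403752-115412674), also known as ICT1, a hydrolase that frees stalled peptides and is built into the large subunit, was lowest at 4.79 CPM per kb. It had 11.1, 10.4, 11.6 and 16.7 CPM in controls and 19.4, 18.3, 19.4 and 18.4 CPM in Nynrin CKO (0.60 ± 0.17 (SE), edgeR adjusted p = 0.0812). Mrpl53 (chr6:83109040-83109939), at 5.32 CPM per kb, had the fewest counts, down to 86 in 1 library. Its values of 5.09, 4.33, 2.02 and 3.67 CPM in controls and 5.23, 6.501, 3.88 and 4.01 CPM in Nynrin CKO overlapped (0.38 ± 0.31 (SE), edgeR adjusted p = 0.612), and its exons overlap those of another record with 313% of its counts. Over all members the levels in controls ran from 4.79 to 55.01 CPM per kb, although the proteins are thought to be present at about equal numbers in an assembled ribosome.

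Mrpl38 (chr11:116131817-116138868), in the central protuberance of the large subunit, had the smallest difference of its subunit. It was at 29.2, 28.6, 28.99 and 40.5 CPM in controls and 34.9, 38.1, 30.6 and 30.6 CPM in Nynrin CKO, where control 4 was the highest of all 8 libraries and the other 3 controls the lowest. The log2 fold change was 0.08 ± 0.15 (SE) with an edgeR adjusted p of 0.847, and it turned to -0.17 with total counts and to -0.40 within the set with few receptor reads. Mrpl52 (0.13), Mrpl32 (0.16), Mrpl3 (0.17), Mrpl17 (0.22), Mrpl10 (0.22) and Mrpl4 (0.22) followed from below, all short of the threshold. The rest of the large subunit without a call lay between 0.23 for Mrpl14 and 0.73 for Mrpl27.

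In the small subunit the calls fell mainly on proteins with a bacterial counterpart: 9 of 16 rose, with a median log2 fold change of 0.55, against 2 of 12 without, with a median of 0.44. This difference between the classes was not tested. Those that rose were Mrps14 (0.78), Mrps18c (0.76), Mrps21 (0.71), Mrps11 (0.66), Mrps7 (0.61), Mrps16 (0.56), Mrps12 (0.55), Mrps10 (0.52) and Mrps15 (0.49). The pair without a counterpart at the same place that rose was Mrps18a (0.54) and Mrps30 (0.53), which despite their names sit in the large subunit. Moving both there, and leaving out Mrps36, gave 16 of 51 large and 9 of 26 small subunit members that rose.

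Mrps14 (chr1:160195215-160202170), the counterpart of S14 in the head of the small subunit, had 81.6, 56.98, 69.4 and 88.1 CPM in controls and 132, 124, 127 and 124 CPM in Nynrin CKO. Its Nynrin CKO libraries lay within a narrow band above all controls, at 127 ± 3.85 against 74.01 ± 13.8 CPM (SD, n = 4 each). The log2 fold change of 0.78 ± 0.14 (SE) was the largest of all members (edgeR adjusted p = 0.0394). It came to 0.89 in the set with more receptor reads and to 0.51 in the one with few.

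Mrps7 (chr11:115603925-115608036), the counterpart of S7, which organises the head, was at 57.3, 56.5, 56.1 and 66.5 CPM in controls and 85.9, 81.3, 98.3 and 95.8 CPM in Nynrin CKO. All 4 Nynrin CKO values were above control 4, the highest control (log2 fold change 0.61 ± 0.11 (SE), edgeR adjusted p = 0.0391). Mrps12 (chr7:28739641-28741770), the counterpart of S12 at the decoding centre, had 33.1, 30.3, 33.5 and 39.5 CPM in controls and 43.3, 55.4, 50.7 and 51.1 CPM in Nynrin CKO (0.55 ± 0.12 (SE), edgeR adjusted p = 0.0478). Nynrin CKO 1 was the lowest of its group and still above control 4.

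Mrps11 (chr7:78783119-78792989) stands head to head with Mrpl46, a large subunit gene on the other strand, and the exons of the pair overlap by 173 bases. Mrps11 was at 24.2, 22.7, 22.8 and 27.8 CPM in controls and 33.5, 41.3, 37.9 and 41.2 CPM in Nynrin CKO (0.66 ± 0.12 (SE), edgeR adjusted p = 0.0394). Mrpl46 was at 29.99, 22.6, 22.1 and 31.00 CPM in controls and 37.1, 41.5, 44.6 and 41.9 CPM in Nynrin CKO (0.64 ± 0.14 (SE), edgeR adjusted p = 0.0492). Both rose, and since the strand setting of the counting is unknown, reads of one cannot be told apart from reads of the other in the shared stretch.

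Exons shared with another record concerned 21 of the 78 members where that record held at least 10% of the member's counts, and 8 of the 25 that rose: Mrpl13, Mrpl18, Mrpl46, Mrpl48, Mrpl49, Mrps7, Mrps11 and Mrps18c. The median log2 fold change was 0.49 in members with and 0.49 in members without such a record. Of the partners, Syvn1, which lies opposite Mrpl49, had a log2 fold change of 0.67 without passing the threshold, while Mtbp opposite Mrpl13 (-0.29) and Rab6a opposite Mrpl48 (-0.03) had values below 0.

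The S18 paralogs were all higher in mean. Mrps18c (chr5:100798627-100804471), the one that sits at the S18 place of the small subunit, was at 22.5, 16.97, 21.6 and 24.2 CPM in controls and 34.4, 36.2, 38.4 and 35.7 CPM in Nynrin CKO (0.76 ± 0.13 (SE), edgeR adjusted p = 0.0379). Mrps18a (chr17:46110986-46128910), the one found in the large subunit, was at 37.1, 33.8, 33.9 and 38.5 and 47.7, 54.1, 52.4 and 53.9 CPM (0.54 ± 0.10 (SE), edgeR adjusted p = 0.0394). Neither gene had overlapping groups, and both rose. Mrps18b (chr17:35910379-35916389), which has its own place in the small subunit, was at 27.7, 36.3, 35.1 and 48.3 and 45.5, 47.8, 60.6 and 55.4 CPM. There control 4 was above Nynrin CKO 1 and 2, and the log2 fold change of 0.51 ± 0.17 (SE) did not pass (edgeR adjusted p = 0.142).

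Mrps30 (chr13:118378381-118387252), a large subunit protein by place, had 50.6, 44.6, 54.4 and 57.5 CPM in controls and 72.4, 78.2, 78.00 and 71.2 CPM in Nynrin CKO (0.53 ± 0.11 (SE), edgeR adjusted p = 0.0419). Mrps36 (chr13:100735955-100744659), known today as a part of the oxoglutarate dehydrogenase complex rather than of the ribosome, had 19.2, 13.2, 17.8 and 22.1 CPM in controls and 26.5, 16.6, 24.9 and 22.2 CPM in Nynrin CKO. Its groups overlapped, with Nynrin CKO 2 below 3 of the 4 controls (0.32 ± 0.19 (SE), edgeR adjusted p = 0.445).

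Mrps9 was the highest of the small subunit per kb in controls and Mrps17 the lowest, at 8.09 CPM per kb, followed by Mrps22. Mrps9 (chr1:42851233-42905683), the counterpart of S9, was at 49.2 CPM per kb. Its values were 111, 124, 105 and 136 CPM in controls and 139.9, 131, 214 and 210.1 CPM in Nynrin CKO, so that 3 and 4 stood far above 1 and 2, and Nynrin CKO 2 was below control 4 (0.55 ± 0.18 (SE), edgeR adjusted p = 0.135). Mrps22 (chr9:98588730-98601660), with no bacterial counterpart, was at 8.44 CPM per kb, with 27.1, 25.5, 27.1 and 31.6 CPM in controls and 38.2, 35.3, 43.5 and 39.9 CPM in Nynrin CKO. Its groups did not overlap, and its adjusted p of 0.0506 in edgeR was just above the threshold (log2 fold change 0.50 ± 0.11 (SE)).

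The 5 smallest log2 fold changes of the small subunit were those of Mrps5, Mrps23, Mrps6 (0.09, edgeR adjusted p = 0.849), Mrps31 (0.17, 0.467) and Mrps17, and the groups overlapped in each. Mrps5 (chr2:127587222-127606829), the counterpart of S5 beside the path of the messenger RNA, was at 49.1, 53.4, 46.8 and 47.00 CPM in controls and 48.4, 46.2, 34.5 and 31.03 CPM in Nynrin CKO. Nynrin CKO 1 was inside the control range, 2 just below it and 3 and 4 further below (-0.29 ± 0.15 (SE), edgeR adjusted p = 0.351). Mrps23 (chr11:88204388-88211507), which has no bacterial counterpart, scattered in both groups, with 33.5, 14.7, 31.96 and 22.4 CPM in controls and 17.4, 18.8, 34.9 and 20.1 CPM in Nynrin CKO (-0.17 ± 0.30 (SE), edgeR adjusted p = 0.836). Its sign was opposite in the library sets, at -0.56 and 0.30. Mrps17 (chr5:129715497-129722556), the counterpart of S17, was at 32.4, 41.1, 29.3 and 60.9 CPM in controls and 77.7, 37.8, 36.2 and 35.1 CPM in Nynrin CKO. Control 4 and Nynrin CKO 1 stood far above the rest of their groups (0.19 ± 0.31 (SE), edgeR adjusted p = 0.820), and without Nynrin CKO 1 the log2 fold change was -0.16.

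Within the sets of libraries the difference kept its direction in most members and was smaller in one set. In the set with more receptor reads, Nynrin CKO 1 and 2 against controls 1 to 3, 37 large and 20 small subunit members were called higher (7.86% of all tested genes), with medians of 0.53 and 0.52. Within the set with few, Nynrin CKO 3 and 4 against control 4, Mrpl18 (0.61), Mrpl19 (0.56), Mrpl49 (0.53), Mrps7 (0.55) and Mrps9 (0.64) were called higher (6.7% of all tested genes) and Mrps5 (-0.52) lower (5.98%). The medians there were 0.23 for the large and 0.30 for the small subunit. Values above 0 numbered 76 of 78 in the first set and 65 of 78 in the second. Of the 10651 genes at the members' level, 6637 and 6059 were above 0, with medians of 0.14 and 0.08. The fit assumes that control 4, alone in its group and set, varies like the other libraries, and the closely similar Nynrin CKO pairs make the spread within sets small. Whether the sets differ in effect was not tested.

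**Figure D4:**
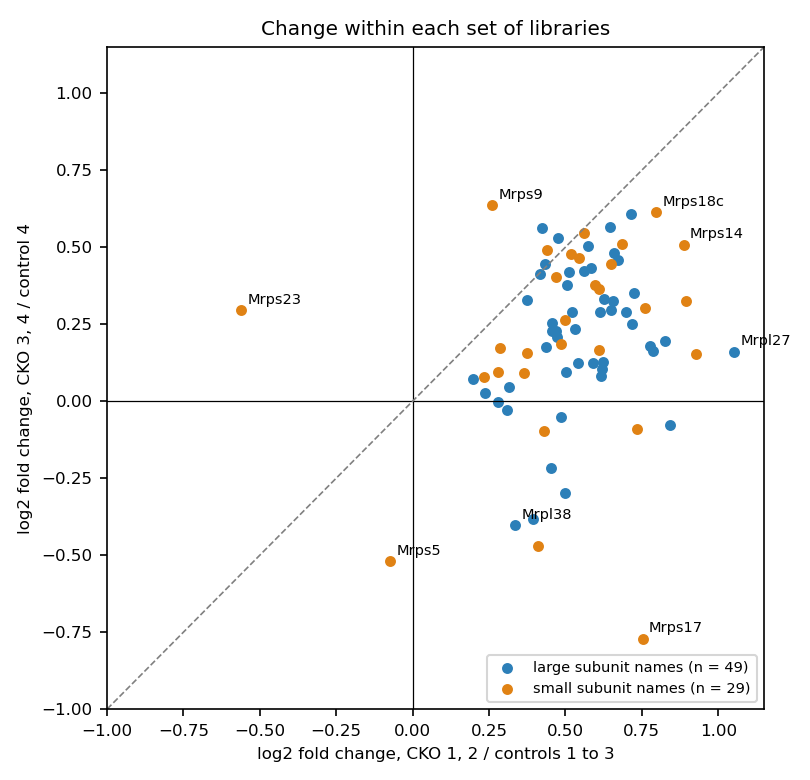
Log2 fold change of each member within the set with few receptor reads (y axis) against that within the set with more (x axis), with large subunit names in blue, small subunit names in orange and equality as a dashed line. Most points lie right of 0 and below the line; Mrps5 is below 0 on both axes, Mrps17 falls from 0.75 to -0.77 and Mrps23 rises from -0.56 to 0.30.

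Members are short transcripts, with a median of 1866 bases against 2570 for all tested genes, and shorter transcripts were higher in Nynrin CKO in general. In bins of the longest transcript below 1 kb, 1 to 2 kb, 2 to 4 kb and 4 kb or more, genes at the members' level had median log2 fold changes of 0.47, 0.40, 0.17 and -0.07. The members, 17, 24, 26 and 11 in number, had medians of 0.52, 0.50, 0.48 and 0.32. The share called was 23.5%, 41.7%, 30.8% and 27.3% of members against 9.90%, 11.3%, 4.03% and 1.37% of genes at their level. Every Nynrin CKO library was above every control in 70.6%, 70.8%, 73.1% and 54.5% of members. Of genes at their level that held in 34.8%, 37.0%, 19.3% and 7.26%. With a smooth trend on length and GC content removed from each library, the medians fell to 0.25 for the large and 0.30 for the small subunit, 70 of 78 values stayed above 0, the median of all tested genes was -0.13, and no member was called (27 at an unadjusted p under 0.05). Across the 78 members the log2 fold change had a Spearman correlation of -0.27 with length, 0.09 with GC content and 0.20 with level, as a description of genes that share the same libraries.

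**Figure D5:**
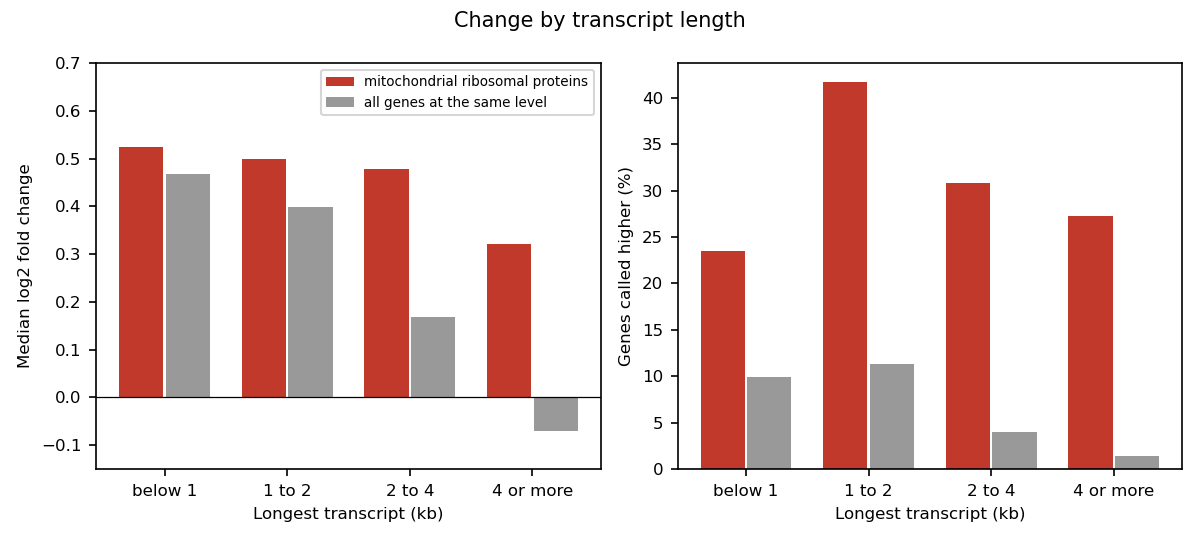
Median log2 fold change (left) and percent of genes called higher (right) by length of the longest transcript, for members in red and for all tested genes at the members' level in grey. On the left the bars of the members are close to the grey ones below 1 kb, at 0.52 against 0.47. They are furthest apart there at 4 kb or more, at 0.32 against -0.07. On the right the bars are apart in every bin, most at 1 to 2 kb, at 41.7% against 11.3%.

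The rest of the mitochondrial translation machinery was less uniform. Of 5 ribosomal proteins with names of another form, Chchd1 (0.61, edgeR adjusted p = 0.0438) and Dap3 (0.43, edgeR adjusted p = 0.0491), both of the small subunit, rose. Chchd1 was at 25.98, 22.3, 24.7 and 30.7 CPM in controls and 41.6, 41.6, 38.8 and 35.98 CPM in Nynrin CKO, and Dap3 at 60.1, 58.03, 54.2 and 57.5 and 74.3, 70.98, 85.2 and 79.2 CPM, without overlap in either gene. The median of the 5 was 0.44, and Aurkaip1 (0.56), Gadd45gip1 (0.44) and Ptcd3 (0.02) did not pass.

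Among 27 genes for assembly of the ribosome and modification of its RNA, 3 rose, none fell and the median log2 fold change was 0.25. Mrm3, which methylates the large ribosomal RNA, was at 23.6, 19.1, 23.7 and 23.1 CPM in controls and 37.8, 34.7, 34.9 and 33.5 CPM in Nynrin CKO (0.65 ± 0.11 (SE), edgeR adjusted p = 0.0382). The helicase Ddx28 (0.50, adjusted p = 0.0488) and the GTPase Mtg2 (0.44, adjusted p = 0.0499), both of which act on the large subunit, also rose in the edgeR fit. Of 16 translation factors and partners, 1 rose, none fell and the median was 0.14. That gene was Mtrf1, a release factor, at 14.3, 15.5, 13.4 and 15.8 CPM in controls and 24.8, 24.7, 24.7 and 22.8 CPM in Nynrin CKO (0.72 ± 0.11 (SE), edgeR adjusted p = 0.0345). Lrpprc, which stabilises mitochondrial messenger RNAs, was at 63.8, 63.6, 23.7 and 21.1 CPM in Nynrin CKO 1 to 4 and at 51.3, 62.4, 61.4 and 64.04 CPM in controls, so that Nynrin CKO 3 and 4 stood apart from all other libraries. It was named for that after its values were seen (-0.47 ± 0.35 (SE), edgeR adjusted p = 0.562).

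None of 20 mitochondrial aminoacyl-tRNA enzymes was called, and their median log2 fold change was 0.06, with 4 higher and 1 lower at an unadjusted p under 0.05. Vars2, the valine enzyme, had the smallest p, at 20.6, 21.5, 19.7 and 18.1 CPM in controls and 15.2, 15.95, 10.5 and 10.9 CPM in Nynrin CKO, all lower (-0.61 ± 0.17 (SE), edgeR adjusted p = 0.0831). Of 4 genes for mitochondrial transcription none was called, with 2 higher and 1 lower at an unadjusted p under 0.05, and Tefm, the elongation factor, had the smallest p (0.50 ± 0.12 (SE), edgeR adjusted p = 0.0521). The mitochondrial ribosomal RNAs were not called either. The large one, mt-Rnr2, was at 33561, 24326, 24334 and 24105 CPM in controls and 20543, 18801, 53987 and 53244 CPM in Nynrin CKO, below the controls in 1 and 2 and above them in 3 and 4 (0.46 ± 0.37 (SE), edgeR adjusted p = 0.594), and mt-Rnr1 had 0.36 ± 0.19 (SE) (edgeR adjusted p = 0.373). The priming of the cDNA, on which capture of these RNAs depends, is not described in the sources used.

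Regulators of nuclear genes for mitochondrial proteins were tested as 9 genes, of which none was called and 1, Ppargc1b, was lower at an unadjusted p under 0.05. Ppargc1b, a coactivator, was at 10.5, 10.3, 10.1 and 10.1 CPM in controls and 6.603, 7.93, 6.46 and 7.07 CPM in Nynrin CKO, all below the controls (-0.55 ± 0.14 (SE), edgeR adjusted p = 0.0722). The factors whose motifs were searched gave 0.23 for Nrf1, 0.38 for Yy1 and -0.14 for Gabpa, short of the threshold. Cytosolic ribosomal proteins, 91 tested genes of 93, had a median log2 fold change of 0.43 with 90 values above 0, close to that of the mitochondrial ones, but 1 was called, Rpl35 (0.998, edgeR adjusted p = 0.0464), and 25 of 91 had groups that did not overlap. Summed, they were at 23373 to 28871 CPM in controls, at 29292 and 29091 CPM in Nynrin CKO 1 and 2 and at 45126 and 46071 CPM in Nynrin CKO 3 and 4. With the same TMM factors the mitochondrial sums given above were level across the 4 Nynrin CKO libraries. Their share of unscaled counts was not level, at 0.426% and 0.423% in Nynrin CKO 1 and 2 and 0.344% and 0.343% in 3 and 4. Of the pseudogene names left out, Mrpl23-ps1 was called higher, with a log2 fold change of 0.93 and an edgeR adjusted p of 0.0478, from a control mean of 2.55 CPM to a Nynrin CKO mean of 4.86 CPM, and such copies can take reads of their parent genes.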

How the data were processed

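Libraries of HSC cDNA, 4 Nynrin CKO and 4 control, were grouped by the sample labels. Raw whole-number counts of reads per gene, with no normalization, were deposited for 55401 genes, per the file headers. Per the submitters' processing notes the build was mm10. Not given in the sources used here were the aligner, how reads were assigned to genes and strands, and the treatment of reads that match several genes. Beside about 3000 sorted HSCs, the series text also gives a smaller cell number.

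The test was run in edgeR 4.0.16 (R 4.3.3). There filterByExpr kept 27573 genes, TMM factors scaled the libraries, and a robust quasi-likelihood F-test compared the groups, with Benjamini-Hochberg adjustment over all tested genes and a threshold of 0.05. The fit was checked on simulated data. CPM use the same factors. Exact permutation used log2(CPM + 1). Transcript length and GC content came from GENCODE M21. Alternatives, with DESeq2 1.42.0 and limma 3.58.1 among them, are given at the end. Members, gene lists and alternatives were chosen with earlier results of these data known. Values in every library are given for the 6 members per subunit with the smallest p among those called, the members with the largest and smallest log2 fold change, the 2 highest and 2 lowest per kb, those below 0, the S18 paralogs, Mrps30 and Mrps36. In other gene lists the 3 called genes with the smallest p, or the 1 with the smallest p where none was called, are named.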

Additional observations from a re-analysis of the deposited data

Results flagged for a closer look

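Of 156 sets of 4 values, 78 members in 2 groups, 11 held a library far from the other 3 of its group by Dixon's criterion, which chance alone meets in about 1 of 20 sets. Control 4 was the high library in 7 of them. It stood at 69.3 CPM for Mrpl10 (other controls 53.8 to 55.7), at 78.4 CPM for Mrpl4 (59.6 to 60.2) and at 56.8 CPM for Mrpl49 (46.3 to 48.0). It likewise stood at 40.5 CPM for Mrpl38 (28.6 to 29.2), 36.4 CPM for Mrpl43 (25.04 to 26.4), 49.2 CPM for Mrps35 (36.9 to 37.8) and 66.5 CPM for Mrps7 (56.1 to 57.3). Control 2 was low for Mrpl16, at 22.0 CPM against 29.3 to 30.3 CPM in the other controls. Nynrin CKO 1 was high for Mrps17, at 77.7 CPM against 35.1 to 37.8 CPM, and slightly high for Mrpl22 (44.9 against 40.3 to 40.9 CPM) and Mrps26 (49.0 against 47.7 to 47.9 CPM).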

How the results depend on the processing

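Of 24 alternatives, the median log2 fold change of both subunits stayed above 0 in each. It moved from 0.49 for the large and 0.50 for the small subunit to 0.22 and 0.22 with total counts, to 0.25 and 0.30 with the length and GC trend removed, and to 0.23 and 0.30 in Nynrin CKO 3 and 4 against control 4. Without 1 library it ranged from 0.39 to 0.58 for the large and from 0.40 to 0.58 for the small subunit. The number of members called was far less stable. Against 14 large and 11 small, edgeR called 0 and 0 with RLE factors, with total counts, with the Xist class as a term, with a filter of 10 counts in all, with the length and GC trend removed, with mitochondrially encoded, ribosomal protein and haemoglobin genes removed, and with the Nynrin CKO pairs summed. At an unadjusted p under 0.05 these settings had 16 to 61 of the 78 members. The share of all tested genes at that threshold was not computed for the alternatives. Upper-quartile factors gave 2 and 5, and the fit without robust estimation 7 and 7. A filter of a mean of 1 CPM gave 13 and 10, with 693 of 17026 tested genes called higher. The fit without robust estimation called 430 of 27573 tested genes higher. Higher counts came from the library set as a term with 20 and 14, DESeq2 with 25 and 14, limma-voom with 33 and 19, and the set with more receptor reads with 37 and 20. Without 1 library the counts ranged from 0 to 30 and from 0 to 16, and the 0 came from each library but control 4. Over all tested genes, 611 were called higher and 162 lower, against 13 and 22 with RLE factors, 225 and 251 with upper-quartile factors, and 59 and 318 with total counts, so the share of higher calls fell from 79.0% to 37.1%, 47.3% and 15.7%. The cause of these changes was not tested.

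With the replicate number as a block 0 large and 0 small subunit members were called, with 59 members at an unadjusted p under 0.05 and medians of 0.50 and 0.50. The numbers were not taken as pairs, since the deviations of same-numbered libraries from their group means correlated at 0.20, 0.24, -0.36 and 0.47, and not every library correlated best with its own number. Nynrin stayed lower throughout, but its edgeR adjusted p rose above 0.05 with the replicate block (log2 fold change -1.85) and with the Nynrin CKO pairs summed (-1.90). It also rose above 0.05 without control 1 or 2 or any single Nynrin CKO library. The log2 fold change of Nynrin ranged from -2.004 to -1.70 over all 8 removals. Signs turned in at least 1 alternative for 19 of the 78 members, most often for Mrpl38 (8), Mrps6 (6), Mrpl52 (5) and Mrps17 (4). Among the members given in every library they turned for Mrpl38 to -0.0066 with the filter of 10 counts, -0.0098 with the filter of a mean of 1 CPM, -0.12 with the length and GC trend removed, -0.0176 with the named gene classes removed, -0.0222 with upper-quartile factors, -0.17 with total counts, -0.40 in the set with few receptor reads and -0.0461 without control 3. They turned for Mrps17 to -0.0217 with total counts, -0.77 in the set with few receptor reads, -0.16 without Nynrin CKO 1 and -0.0323 without control 3 (range over the removals -0.16 to 0.46), for Mrps36 to -0.10 with the length and GC trend removed, and for Mrps23 to 0.30 in the set with few receptor reads. At the depth of these libraries Mrpl53, with counts down to 86, was the least precise member.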
